A study of Mus musculus with 9 samples.

Results

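The 10 genes described here encode glutathione transferases: Gsta1, Gsta3 and Gsta4 of the alpha class, Gstm1 and Gstm2 of the mu class, Gstp1 of the pi class, Gsto1 of the omega class, Gstk1 of the kappa class, and the membrane-bound Mgst1 and Mgst3. They were chosen by name and found as 10 of the 23799 rows of the deposited expression table, each by its gene symbol. RNA was measured by sequencing in 9 libraries of fluorescent tumour cells sorted from mice with a breast cancer (BC) or a pancreatic ductal adenocarcinoma (PDAC), at the primary site and at metastatic sites. The BC cells derived from 4T1-eGFP, a mouse mammary carcinoma line that carries a green label, and were sorted by GFP at 28 days, giving BC lung metastases 4 and 6 and BC primary tumours 1 and 5. The PDAC cells were sorted by YFP from mice whose genotype held KrasL/+, p53F/+, p48-Cre and ROSA-LSL-YFP, in which the Cre is driven from the pancreatic gene known as p48. Number 1 carried SIRT6F/F in addition and was 25.67 weeks old, and number 5 lacked SIRT6F/F and was 28.95 weeks old, so age, SIRT6 alleles and animal cannot be told apart. They gave PDAC liver metastases 1 and 5, PDAC lung metastasis 1 and PDAC primary tumours 1 and 5. The labels describe both models as orthotopic, and they name no untreated or healthy tissue. The comparisons asked which of these genes differ between metastasis and primary tumour in each model, and between the primary tumours of the models.

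Glutathione transferases join the tripeptide glutathione to reactive, fat-soluble molecules, so that the products can be pumped out of the cell and broken down to mercapturates. The cytosolic classes differ in the compounds they handle, and several members also reduce peroxides or carry steroids and other ligands. Many of the genes have an antioxidant response element, to which the transcription factor NRF2 binds when oxidants or electrophiles inactivate its repressor KEAP1. In the liver, alpha and mu enzymes are abundant in hepatocytes, while the pi enzyme is often high in carcinomas.

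The estimated reads on genes ranged between 21300000 and 128000000 per library, and 9530 to 20478 genes were above 0, fewest in PDAC lung metastasis 1, PDAC primary tumour 5 and BC lung metastasis 6. Values were read as RPKM, which divides the reads of a gene by its length and by a total for the library, so that levels of different genes can be compared per length. That unit and the read estimates are inferred and approximate. Tfrc, a transferrin receptor gene used by most cells, was listed at 0 in PDAC lung metastasis 1 and PDAC primary tumour 5, and a member at 0 is therefore given only as listed at 0. Epithelial markers, 9 genes that include keratins and Epcam, summed to 17190 RPKM in PDAC primary tumour 5 and 132 RPKM in PDAC lung metastasis 1, with 267 RPKM in PDAC liver metastasis 5 and 2235 to 6690 RPKM in the other 6 libraries. PDAC lung metastasis 1 and PDAC liver metastasis 5 were the libraries lowest in epithelial markers. Erythroid markers made up 38.9 and 20.3% of all RPKM there, and neutrophil markers 2.27 and 21.9%. PDAC liver metastasis 1, with 6690 RPKM of epithelial markers, had the highest erythroid share of all libraries, at 39.1%, and 0.949% of neutrophil markers. In PDAC primary tumour 1 the erythroid share was 11%. Whether cells without the tumour label were sorted with the others was not tested. Whether fewer cells of a type or less RNA per cell lies behind a bulk value cannot be told apart.

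The alpha class held the widest differences between libraries. Gsta4, whose enzyme conjugates 4-hydroxynonenal and other products of lipid peroxidation, stood at 359 and 45.4 RPKM in PDAC liver metastases 1 and 5, 0.164 RPKM in PDAC lung metastasis 1, and 107 and 2320 RPKM in PDAC primary tumours 1 and 5. In the BC model Gsta4 had 15.5 and 0.582 RPKM in lung metastases 4 and 6, against 12.4 and 25.6 RPKM in primary tumours 1 and 5. PDAC primary tumour 5 was the highest library and PDAC lung metastasis 1 the lowest, at a value worth under 3 reads by the estimated depth. The 4 PDAC libraries of liver and primary site were all above the 4 BC libraries.

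Gsta1, an alpha enzyme of broad conjugating and peroxide-reducing activity, was at 13.9 and 2.50 RPKM in PDAC liver metastases 1 and 5 and was listed at 0 in PDAC lung metastasis 1, against 1.67 and 40.7 RPKM in PDAC primary tumours 1 and 5. It had 0.0817 and 0 RPKM in BC lung metastases 4 and 6, against 0.112 and 0.327 RPKM in BC primary tumours 1 and 5. Liver and primary PDAC libraries thus held Gsta1 above 1 RPKM and the BC libraries did not. In GENCODE release M21, 89.7% of the 50-base words of Gsta1 also occur in another gene, and 82.9% of all its words in the neighbouring Gm3776, so reads of Gsta1 cannot be told apart with certainty from those of its copies. Gm3776 reached 7.38 RPKM in PDAC primary tumour 5 and 6.92 RPKM in PDAC liver metastasis 1, and Gsta2, another close copy, stayed at or under 0.584 RPKM in all 9 libraries.

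Gsta3, an alpha enzyme known in the mouse for detoxifying the epoxide of aflatoxin, had 61.2 and 5.81 RPKM in PDAC liver metastases 1 and 5. It was listed at 0 in PDAC lung metastasis 1 and in PDAC primary tumour 1, and had 246 RPKM in PDAC primary tumour 5. The BC lung metastases 4 and 6 had 0.112 and 0 RPKM, against 0.0343 and 0.00548 RPKM in BC primary tumours 1 and 5. Gsta3 was therefore detected well above 1 RPKM in 3 libraries, all PDAC, and the pair of PDAC primary tumours stood at opposite ends. No 50-base word of Gsta3 or Gsta4 was shared with another gene.

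The promoter window of Gsta3 is shown because it is one of 2 that hold the core of the antioxidant response element, TGACNNNGC, among the 9 members with a window in RefSeq (GRCm38.p6, 250 bases before to 50 after the gene start). The motif was searched on both strands, and 14% of the 27025 genes with a window hold it. The window lies at chr1:21240335-21240634 on the plus strand, and the capitals mark the motif, whose first base is at position -121 from the start.
Gsta3: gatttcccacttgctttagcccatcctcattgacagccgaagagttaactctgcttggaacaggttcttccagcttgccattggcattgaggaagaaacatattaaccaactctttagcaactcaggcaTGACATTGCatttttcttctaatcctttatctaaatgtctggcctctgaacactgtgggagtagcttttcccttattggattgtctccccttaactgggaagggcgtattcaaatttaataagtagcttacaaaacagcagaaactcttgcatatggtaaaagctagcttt
This match is a description of the letters and not a measured binding site.

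In the mu class, Gstm1 and Gstm2 are adjacent on chromosome 3 and followed different orders. Gstm1, a main cytosolic conjugating enzyme of mouse liver, had 16.4 and 115 RPKM in BC lung metastases 4 and 6, against 10.7 and 5.25 RPKM in BC primary tumours 1 and 5. Its PDAC levels were 284 and 101 RPKM in liver metastases 1 and 5 and 99.7 RPKM in lung metastasis 1, against 52.7 and 114 RPKM in primary tumours 1 and 5. The BC primary tumours were the 2 lowest of the 9 libraries and PDAC liver metastasis 1 was the highest. By group mean the order was PDAC liver metastasis, PDAC lung metastasis, PDAC primary, BC lung metastasis and BC primary, and libraries did not overlap between the first and second or between the last pair of neighbours in that order.

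Gstm2, a mu enzyme whose human counterpart conjugates oxidized catechols, had 31.6 and 45.3 RPKM in BC lung metastases 4 and 6, against 19.1 and 15.0 RPKM in BC primary tumours 1 and 5. It had 22.6 and 1.62 RPKM in PDAC liver metastases 1 and 5 and 44.7 RPKM in PDAC lung metastasis 1, against 1.23 and 0 RPKM in PDAC primary tumours 1 and 5. Gstm2 was the only one of the 10 genes for which both BC tumours stood above both PDAC tumours at the primary site, and every metastasis library stood above both primary tumours of its own model. Of the 50-base words of Gstm1, 19.9% occur in another gene, chiefly the pseudogene Gstm2-ps1 (14.9%) and Gstm3 (8.60%). For Gstm2 the share was 8.30%.

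Gstp1, the pi enzyme, which besides conjugation binds and restrains the stress kinase JNK, had 194 and 496 RPKM in BC lung metastases 4 and 6, against 229 and 83.8 RPKM in BC primary tumours 1 and 5. It had 641 and 79.7 RPKM in PDAC liver metastases 1 and 5 and 109 RPKM in PDAC lung metastasis 1, against 247 and 488 RPKM in PDAC primary tumours 1 and 5. All 9 libraries lay between 79.7 and 641 RPKM, the narrowest relative range of the 10 genes, and neighbouring groups in the order of means overlapped throughout. The neighbouring copy Gstp2 shares 51.0% of the 50-base words of Gstp1, and the ratio of the deposited Gstp1 to Gstp2 levels was 21.9 to 40.0. The Gstp1 promoter window, at chr19:4037863-4038162 on the minus strand of GRCm38.p6, is shown because it is the only member window with TGANTCA, the site of AP-1 factors, which 8.97% of genes with a window hold on either strand. The capitals mark that match, which does not overlap an antioxidant core.
Gstp1: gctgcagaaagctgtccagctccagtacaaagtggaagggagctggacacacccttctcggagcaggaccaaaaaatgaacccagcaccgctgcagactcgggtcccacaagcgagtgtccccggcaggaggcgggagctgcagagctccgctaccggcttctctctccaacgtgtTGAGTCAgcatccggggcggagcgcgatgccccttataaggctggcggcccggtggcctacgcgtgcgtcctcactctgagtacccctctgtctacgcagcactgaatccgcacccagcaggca

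Gsto1, an omega enzyme with dehydroascorbate reductase and thioltransferase activity, had 71.9 and 142 RPKM in BC lung metastases 4 and 6, against 103 and 96.9 RPKM in BC primary tumours 1 and 5. In the PDAC libraries it had 422.5 and 153.5 RPKM in liver metastases 1 and 5 and 45.1 RPKM in lung metastasis 1, against 139 and 3061 RPKM in primary tumours 1 and 5. PDAC primary tumour 5 stood far above the other 8 libraries, and PDAC lung metastasis 1 was the lowest. The level of 3061 RPKM was above that of 99.95% of the genes in the library.

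Gstk1, the kappa enzyme of mitochondria and peroxisomes, had the lowest maximum of the 10 genes. It had 0.602 and 0 RPKM in BC lung metastases 4 and 6, against 4.65 and 1.40 RPKM in BC primary tumours 1 and 5. It had 14.6 and 2.69 RPKM in PDAC liver metastases 1 and 5 and was listed at 0 in PDAC lung metastasis 1, against 5.985 and 0 RPKM in PDAC primary tumours 1 and 5. The 3 libraries in which it was listed at 0 were the 3 with the fewest genes above 0.

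Mgst1 and Mgst3 lie in the membranes of the endoplasmic reticulum and mitochondria and also reduce lipid peroxides. Mgst1 had 201 and 405 RPKM in PDAC liver metastases 1 and 5 and 231 RPKM in PDAC lung metastasis 1, against 52.3 and 164 RPKM in PDAC primary tumours 1 and 5. Its BC levels were 60.8 and 11.1 RPKM in lung metastases 4 and 6, against 10.3 and 17.5 RPKM in primary tumours 1 and 5. The 3 PDAC metastases were the 3 highest libraries, and both PDAC primary tumours were above 3 of the 4 BC libraries.

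Mgst3 followed another order, with 112 and 343 RPKM in BC lung metastases 4 and 6, against 75.3 and 50.7 RPKM in BC primary tumours 1 and 5. It had 217 and 35.3 RPKM in PDAC liver metastases 1 and 5 and 59.8 RPKM in PDAC lung metastasis 1, against 57.6 and 843 RPKM in PDAC primary tumours 1 and 5. PDAC primary tumour 5 was again the highest library, and the group ranges of neighbouring groups overlapped. The second window that holds the antioxidant core is that of Mgst1, at chr6:138140277-138140576 on the plus strand of GRCm38.p6. Its capitals mark the core, which reads on the reverse strand, and the leftmost capital as printed is at position -56.
Mgst1: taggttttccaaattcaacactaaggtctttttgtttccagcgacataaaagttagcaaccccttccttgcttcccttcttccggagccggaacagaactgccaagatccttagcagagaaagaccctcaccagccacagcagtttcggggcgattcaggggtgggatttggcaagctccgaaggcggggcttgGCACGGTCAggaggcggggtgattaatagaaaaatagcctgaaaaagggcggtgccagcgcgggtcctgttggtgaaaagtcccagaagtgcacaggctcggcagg

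**Figure D1:**
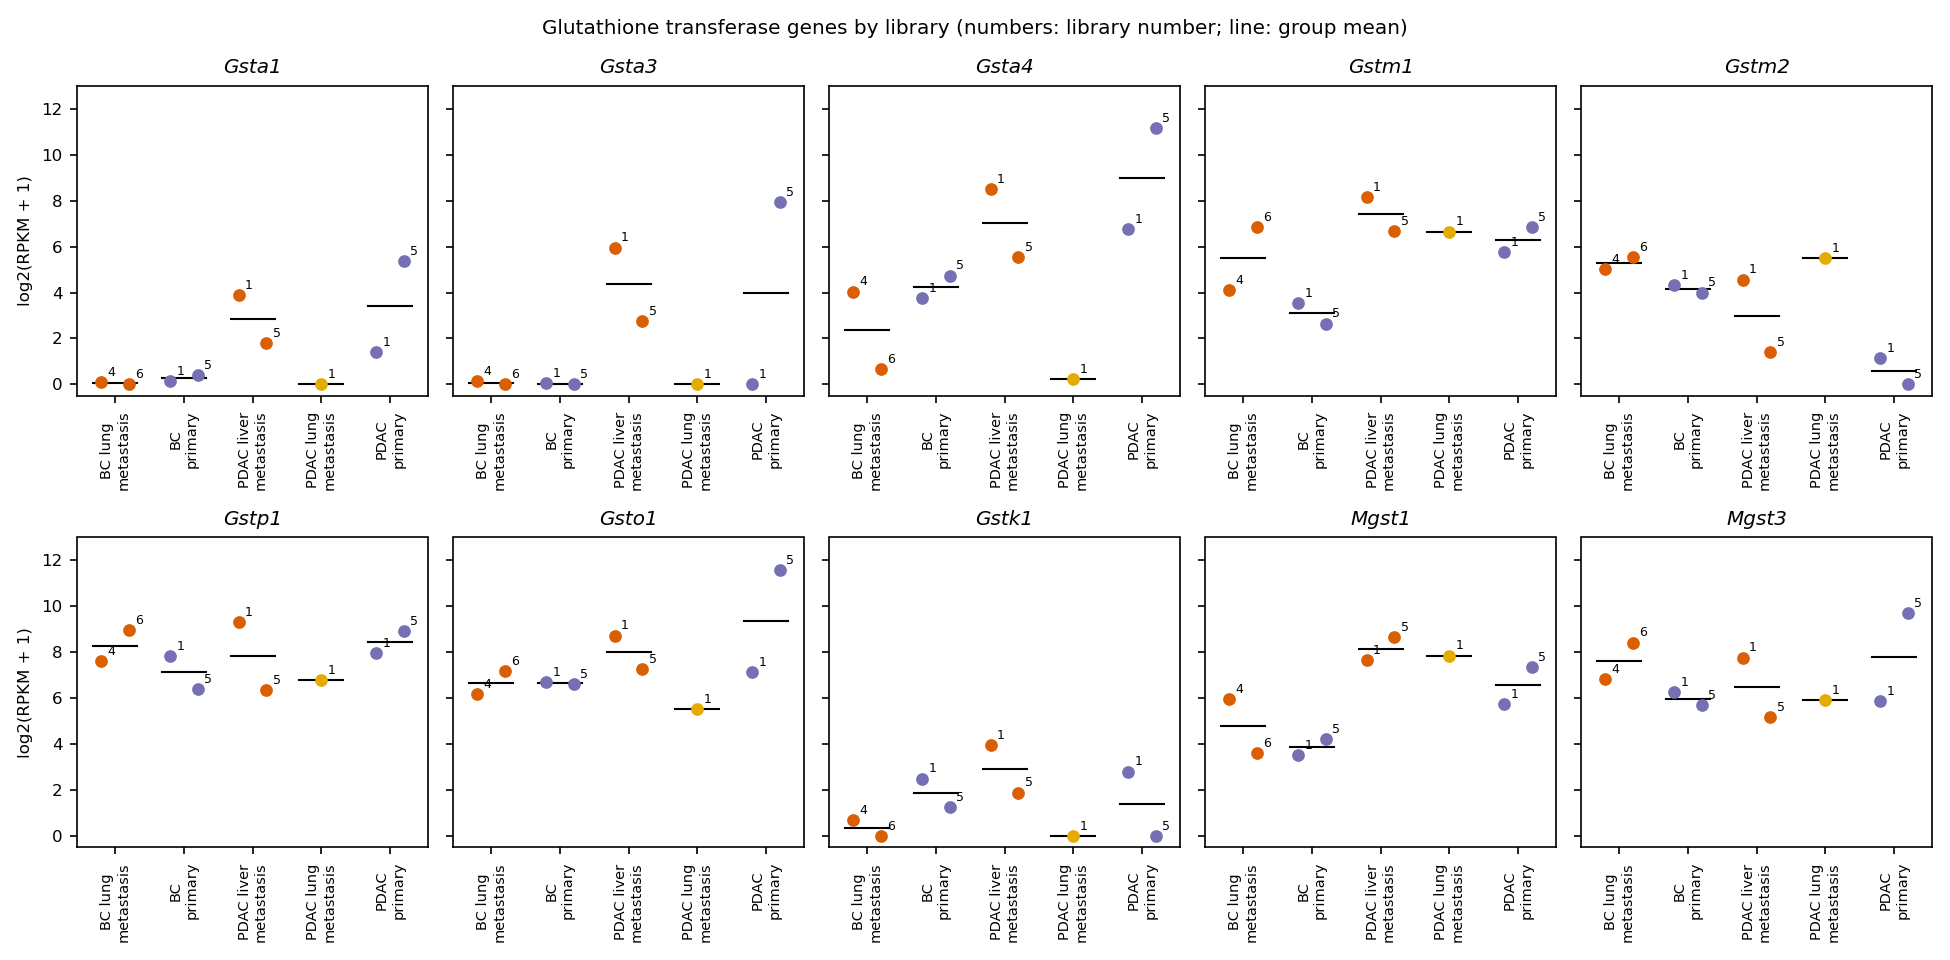
Level of each of the 10 genes in each of the 9 libraries as log2(RPKM + 1), with 1 panel per gene, points numbered by library and a line at the group mean (n = 2 libraries, and 1 for PDAC lung metastasis; orange for BC lung and PDAC liver metastasis, yellow for PDAC lung metastasis, purple for primary tumours). PDAC primary tumour 5 is at the top for Gsta1, Gsta3, Gsta4, Gsto1 and Mgst3, with 3061 RPKM for Gsto1, while Gstp1 stays between 79.7 and 641 RPKM throughout.

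Summed over the 10 genes, the level was 503 and 1154 RPKM in BC lung metastases 4 and 6, against 465 and 296.5 RPKM in BC primary tumours 1 and 5. The sum was 2237 and 833 RPKM in PDAC liver metastases 1 and 5 and 589 RPKM in PDAC lung metastasis 1, against 665 and 7276 RPKM in PDAC primary tumours 1 and 5. In PDAC primary tumour 5 the 10 genes made up 1.53% of all RPKM, and in the other 8 libraries 0.0637 to 0.243%. A different gene led the sum in different libraries. Gstp1 led in BC lung metastases 4 and 6, BC primary tumour 1, PDAC liver metastasis 1 and PDAC primary tumour 1, with 28.6 to 49.3% of the sum. Gsto1 led in BC primary tumour 5 (32.7%) and PDAC primary tumour 5 (42.1%, followed by Gsta4 at 31.9%). Mgst1 led in PDAC liver metastasis 5 (48.7%) and PDAC lung metastasis 1 (39.2%), the libraries with the lowest epithelial markers.

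**Figure D2:**
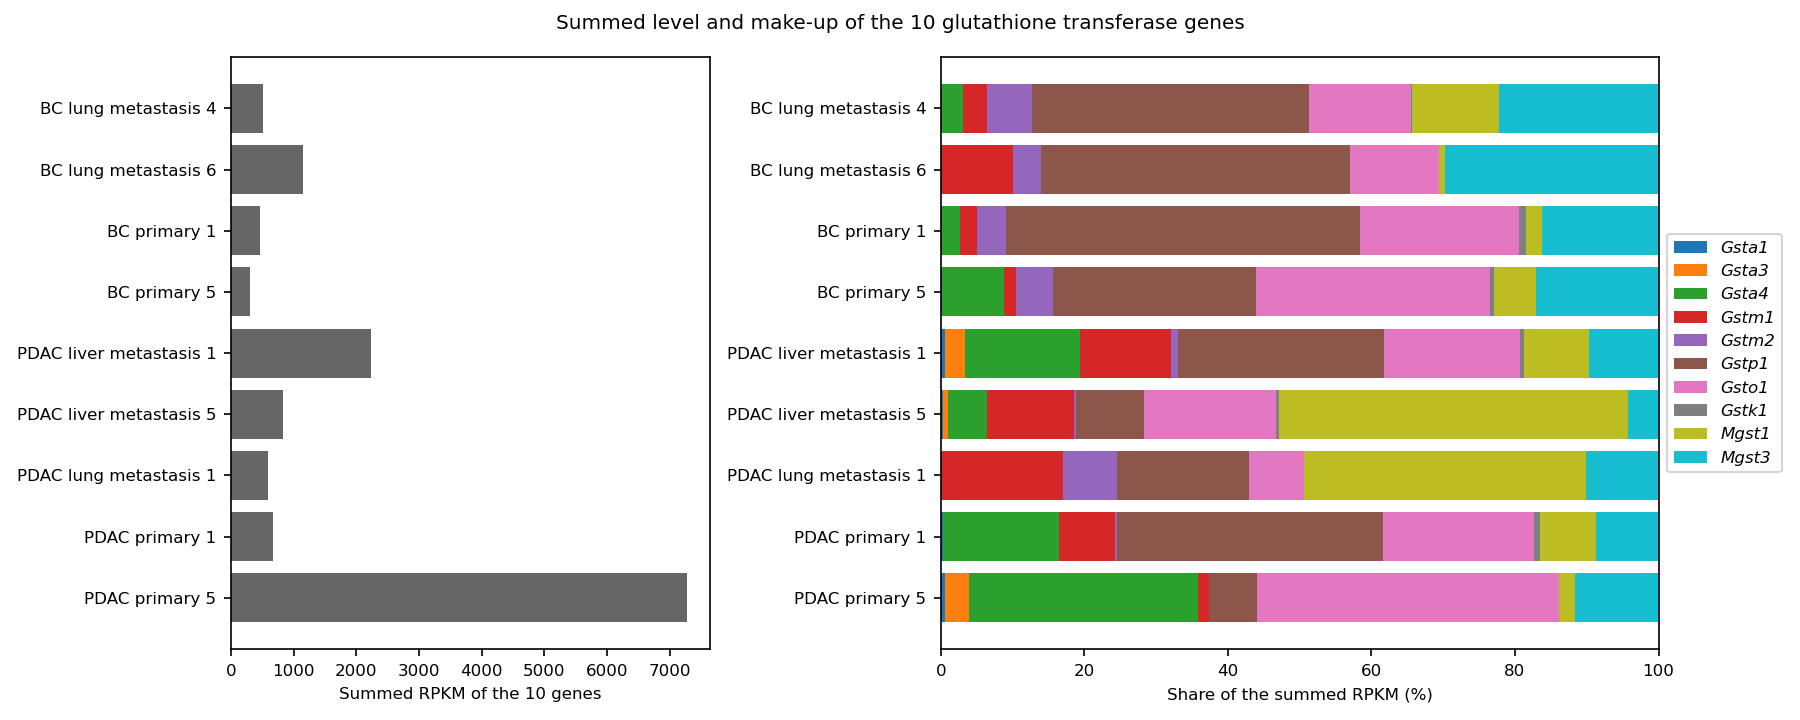
Summed level of the 10 genes in RPKM (left) and the share of each gene in that sum in percent (right), with 1 bar per library. PDAC primary tumour 5 reaches 7276 RPKM, mostly Gsto1 and Gsta4, and Mgst1 makes up 48.7% of the sum in PDAC liver metastasis 5.

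Markers of other cell types differed widely between the PDAC libraries. Hepatocyte markers, 14 genes, summed to 1131 and 2516 RPKM in PDAC liver metastases 1 and 5 with none listed at 0, and Alb, the albumin gene, was at 30.8 and 380.5 RPKM there. The same markers summed to 36.1 RPKM in PDAC lung metastasis 1 (8 listed at 0) and to 20.9 and 491 RPKM in PDAC primary tumours 1 and 5 (6 and 7 listed at 0). In the BC libraries the sum was 0.252 to 3.60 RPKM, with 4 to 8 of the 14 listed at 0. Alb was listed at 0 in PDAC primary tumour 5, whose hepatocyte sum was mostly Apoa1 (245 RPKM), an apolipoprotein, and Fabp1 (220 RPKM), a fatty acid carrier, both of liver and gut.

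Erythroid markers, 7 genes including the haemoglobins, summed to 360000 and 201100 RPKM in PDAC liver metastases 1 and 5 and 360100 RPKM in PDAC lung metastasis 1, against 61290 and 276 RPKM in PDAC primary tumours 1 and 5. Neutrophil markers, 10 genes, summed to 8731 and 217400 RPKM in PDAC liver metastases 1 and 5 and 21040 RPKM in PDAC lung metastasis 1, against 1299 and 367 RPKM in PDAC primary tumours 1 and 5. Macrophage markers, 10 genes, summed to 14370, 15530 and 19130 RPKM in the same metastases, against 3355 and 1185 RPKM in the primary tumours. The sums of all 3 lists were higher in each PDAC metastasis than in either PDAC primary tumour. In liver, 7 of 7 erythroid, 4 of 10 neutrophil and 8 of 10 macrophage markers were higher without overlap, against 15.4% of all genes. In the lung metastasis these counts were 7, 6 and 8, against 23.9%, and 1 neutrophil marker was lower without overlap. In the BC model neutrophil markers summed to 2508 and 1541 RPKM in lung metastases 4 and 6, against 28.4 and 28.6 RPKM in primary tumours 1 and 5. Lung epithelium markers, 9 genes, summed to 36170 RPKM in PDAC lung metastasis 1 and 1.50 to 635 RPKM elsewhere. B and plasma cell markers, 7 genes, summed to 32460 RPKM in PDAC primary tumour 1 and 2.02 RPKM in PDAC primary tumour 5. Endothelial markers, 7 genes, summed to 343.7 RPKM in PDAC lung metastasis 1 and 0 to 18.6 RPKM elsewhere. Fibroblast markers (7 genes) stayed at or under 102.8 RPKM and pancreatic acinar markers (6 genes) at or under 226.4 RPKM in all 9 libraries. The part of these cells in the levels of the 10 genes was not tested.

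**Figure D3:**
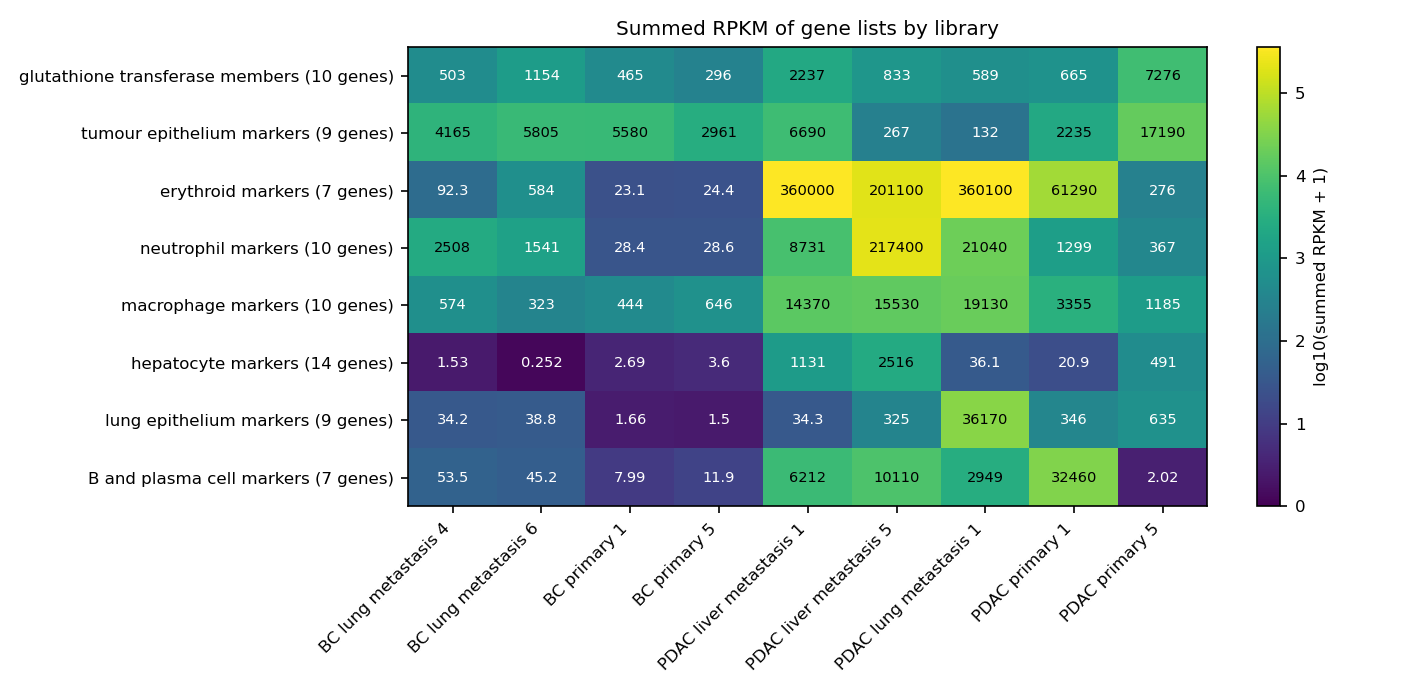
Summed RPKM of the 10 genes and of 7 lists of cell type markers in each of the 9 libraries, printed in each cell and coloured by log10(summed RPKM + 1). Epithelial markers are lowest in PDAC lung metastasis 1 (132 RPKM), where erythroid markers reach 360100 RPKM and lung epithelium markers 36170 RPKM.

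In BC lung metastases, Gstm1, Gstm2 and Mgst3 were higher in both libraries than in both primary tumours, and Gsta1, under 1 RPKM in all 4 libraries, and Gstk1 were lower in both. On log2(RPKM + 1) the difference between lung metastasis and primary tumour was 2.40 ± 1.00 (SE, n = 2 against 2) for Gstm1, 1.12 ± 1.23 for Gstm2 and 1.65 ± 1.23 for Mgst3. It was -0.22 ± 1.30 for Gsta1 and -1.54 ± 1.18 for Gstk1. The other 5 genes overlapped between the groups, with differences between -1.89 ± 1.59 for Gsta4 and 1.16 ± 0.97 for Gstp1.

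No member passed the test in that comparison (limma with Benjamini-Hochberg adjustment over 12832 genes, adjusted p = 0.974 for Gstm1, called under 0.05), where 0% of all genes were called. Gstm1 alone was under an unadjusted p of 0.05, as were 2.07% of all genes. Without overlap, 3 of the 10 genes were higher and 2 lower, against 15.8% and 27% of all genes tested. The median difference of the 10 genes was 0.48, against -0.29 for all genes. The neutrophil sum was also higher in both BC lung metastases (2508 and 1541 RPKM) than in the primary tumours (28.4 and 28.6 RPKM). So were the sums of lung epithelium (34.2 and 38.8 against 1.66 and 1.50 RPKM) and erythroid markers (92.3 and 584.5 against 23.1 and 24.4 RPKM). The B and plasma cell sum was higher too (53.5 and 45.2 against 7.99 and 11.9 RPKM), but was mostly Igkc (48.1 and 45.1 RPKM). Of the 7 B and plasma cell markers, 1 was higher and 1 was lower without overlap. Of the 10 macrophage markers, 1 was higher and 6 were lower without overlap. The part of these cells in the differences was not tested. Without BC lung metastasis 6 the difference of Gstm1 was 1.03, without BC lung metastasis 4 it was 3.77, and Mgst1, at 0.92 ± 0.92 with both, was at 2.09 and -0.26. The p-values rest on the spread among these 9 libraries, which may be technical, since nothing in the labels says that the BC libraries of a group came from separate animals.

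In PDAC liver metastases, Gstm2 and Mgst1 were higher in both libraries than in both primary tumours, and no member was lower in both. The differences were 2.40 ± 1.23 for Gstm2 (SE, n = 2 against 2; limma adjusted p = 0.842) and 1.61 ± 0.92 for Mgst1 (adjusted p = 0.857). Gstk1 (1.52 ± 1.18), Gstm1 (1.12 ± 1.00) and Gsta3 (0.39 ± 2.11) had positive differences with overlapping libraries. Gsta4 (-1.96 ± 1.59), Gsto1 (-1.36 ± 1.19), Mgst3 (-1.32 ± 1.23), Gstp1 (-0.61 ± 0.97) and Gsta1 (-0.55 ± 1.30) had negative ones.

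None of the 10 genes was called between PDAC liver metastasis and primary tumour, and none was under an unadjusted p of 0.05, against 0.00779% of all genes called (1 gene, higher) and 6.4% under that p. With the library number, which also marks genotype and age, as a replicate block, 0 genes were called. Beside the 2 members higher without overlap, the background was 15.4%, and beside the 0 lower it was 10.2%. The median difference was -0.08 for the 10 genes and 0.08 for all genes. The hepatocyte sum was higher in both liver metastases (1131 and 2516 RPKM) than in either primary tumour (20.9 and 491 RPKM). So were the erythroid, neutrophil and macrophage sums, with 4 of the 10 neutrophil markers higher without overlap. The part of these cells in the levels of Gstm2 and Mgst1 was not tested.

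These differences depended on which PDAC primary tumour was used. With PDAC primary tumour 5 alone as the primary, Gsto1 was lower in the liver metastases, at -3.58 ± 0.85 (adjusted p = 0.0312 by limma, n = 2 against 1), while Gsta4 was at -4.17 ± 1.48, Gsta3 at -3.59 ± 1.38 and Mgst3 at -3.25 ± 1.10 without passing. In that fit 8.41% of all genes were called. With PDAC primary tumour 1 alone no member passed, and Gsto1 was at 0.87 ± 0.85, Gsta4 at 0.25 ± 1.50, Gsta3 at 4.36 ± 1.20, Mgst3 at 0.60 ± 1.10 and Gsta1 at 1.44 ± 0.96. Against primary tumour 5 and primary tumour 1 alone, Gstm2 (2.98 and 1.82), Mgst1 (0.79 and 2.43), Gstm1 (0.57 and 1.67) and Gstk1 (2.92 and 0.12) had a positive difference each time. The single primary tumour is assumed in these fits to vary like the other groups.

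In the PDAC lung metastasis, set against the same 2 primary tumours, the alpha genes and Gsto1 were below both primary tumours or listed at 0, and Gstm2 was above both. The difference was -8.75 ± 1.94 for Gsta4 (SE, n = 1 against 2; limma adjusted p = 0.0764), -3.83 ± 1.45 for Gsto1 (adjusted p = 0.281) and 4.94 ± 1.51 for Gstm2 (adjusted p = 0.179). For Gsta4, whose lung value was worth under 3 reads, the difference was -10.89 ± 2.33 (adjusted p = 0.0633) with a pseudocount of 0.1. Gsta1 was at -3.40 ± 1.59 and Gsta3 at -3.97 ± 2.59. Gstp1 (-1.67 ± 1.19), Mgst3 (-1.87 ± 1.51), Gstk1 (-1.40 ± 1.44), Mgst1 (1.31 ± 1.13) and Gstm1 (0.36 ± 1.22) lay closer to 0. This library had the lowest epithelial markers (132 RPKM, against 2235 and 17190 RPKM in PDAC primary tumours 1 and 5) and the highest lung epithelium markers. Its erythroid, neutrophil and macrophage sums were also above those of both primary tumours. Of its 10 neutrophil markers, 6 were above both and 1 was below both, against 23.9% and 34.4% of all genes. Endothelial markers were above both as well, at 343.7 RPKM against 3.74 and 0 RPKM, and so was the fibroblast sum, which was nearly all Dcn (102.8 RPKM). Pancreatic acinar markers were below both, at 0 RPKM against 26.3 and 226.4 RPKM. The part of all these cells in the differences was not tested.

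No member was called between the PDAC lung metastasis and the primary tumours, against 0.584% of all genes, and 3 were under an unadjusted p of 0.05 (Gstm2 higher, Gsta4 and Gsto1 lower), against 13.8%. With the replicate block 0 genes were called in place of 75, and Gsta4 was at -8.39 ± 2.29 (adjusted p = 0.220). Without overlap, 2 members were higher (Gstm2 and Mgst1, background 23.9%) and 4 lower (Gsta1, Gsta4, Gstp1 and Gsto1, background 34.4%). The median difference was -1.77 for the 10 genes and -0.50 for all genes. PDAC lung metastasis 1 shares its number, age and SIRT6 genotype with PDAC primary tumour 1 and differs from PDAC primary tumour 5 in all of them. A difference from PDAC primary tumour 5 therefore also crosses animal, age and genotype. With PDAC primary tumour 5 alone as the primary, 1 library is set against 1, and the differences were -10.96 for Gsta4, -6.05 for Gsto1, -7.95 for Gsta3, -5.38 for Gsta1 and 5.51 for Gstm2. These 5 members and 12.6% of all genes passed the threshold of the fit, but its spread comes wholly from other groups, so this is no replicated test. With PDAC primary tumour 1 alone, also 1 library against 1, no member passed, and Gsta4 was at -6.54.

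Over both models, with the model as a covariate, Gstm1 and Gstm2 had the largest positive differences between the 5 metastases and the 4 primary tumours, at 1.56 ± 0.69 and 2.28 ± 0.96 (SE; limma adjusted p = 0.853 each). Mgst1 was at 1.24 ± 0.60 and Gsta4 at -3.16 ± 1.48, and Gstp1 was at -0.00033 ± 0.69. None of the 10 genes was called, against 0.00779% of all genes, and 2 (Gstm1 and Gstm2) were under an unadjusted p of 0.05, against 4.89%. No member's 5 metastases lay clear of the 4 primary tumours in either direction, as 0.366% of all genes did upward and 0.538% downward. The difference of the metastasis effect between PDAC liver and BC lung was called for no member and no gene (0%), with no member and 4.13% of all genes under an unadjusted p of 0.05. Gstk1 (3.06 ± 1.66) and Mgst3 (-2.97 ± 1.74) had the largest such differences of effect, with an adjusted p of 0.874 each by limma.

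PDAC primary tumours held more of 6 members than BC primary tumours in both libraries: Gsta1, Gsta4, Gstm1, Gstp1, Gsto1 and Mgst1. The difference between PDAC primary and BC primary was 4.73 ± 1.59 for Gsta4 (SE, n = 2 against 2; limma adjusted p = 0.273), 3.20 ± 1.00 for Gstm1 (0.251), 3.12 ± 1.30 for Gsta1 (0.344), 2.70 ± 1.19 for Gsto1 (0.370), 2.70 ± 0.92 for Mgst1 (0.281) and 1.32 ± 0.97 for Gstp1 (0.563). Gstm2 was lower in both PDAC primary tumours, at -3.59 ± 1.23 (0.280). Gsta3 (3.95 ± 2.11), Mgst3 (1.82 ± 1.23) and Gstk1 (-0.48 ± 1.18) overlapped between the models. Cell type markers also differed. Erythroid markers summed to 61290 and 276 RPKM in PDAC primary tumours 1 and 5, against 23.1 and 24.4 RPKM in BC primary tumours 1 and 5. Macrophage markers summed to 3355 and 1185 RPKM, against 444.5 and 646 RPKM. Of the 10 macrophage markers, 5 had a positive difference and 5 a negative one, with 4 higher and 0 lower without overlap. In PDAC primary tumour 5, 3 of the 10 were listed at 0. Neutrophil markers summed to 1299 and 367 RPKM in the PDAC tumours, against 28.4 and 28.6 RPKM in the BC tumours. That sum was mostly Ltf (352.3 RPKM) in PDAC primary tumour 5. S100a8 was at 9.28 RPKM there, against 15.0 and 13.2 RPKM in BC primary tumours 1 and 5. Of the 10 neutrophil markers, 2 were higher and 0 lower without overlap, against 15.7% and 31.5% of all genes. Lung epithelium markers summed to 346 and 635 RPKM, against 1.66 and 1.50 RPKM. That sum was mostly Napsa (343.5 RPKM) in PDAC primary tumour 1, and Sftpd (461.9 RPKM) and Cldn18 (173.2 RPKM) in PDAC primary tumour 5. Sftpc was at 0.978 and 0.278 RPKM in these tumours, and 5 of the 9 lung genes were listed at 0 in each. B and plasma cell markers were at 32460 and 2.02 RPKM in the PDAC tumours, against 7.99 and 11.9 RPKM in the BC tumours. Epithelial markers were at 2235 and 17190 RPKM, against 5580 and 2961 RPKM, so the sums of these 2 lists overlapped. Hepatocyte markers summed to 20.9 and 491 RPKM, against 2.685 and 3.595 RPKM. They were mostly Trf (19.0 RPKM) in PDAC primary tumour 1, and Apoa1 and Fabp1 in PDAC primary tumour 5. Pancreatic acinar markers were also higher in the PDAC tumours (26.3 and 226.4 against 10.55 and 5.27 RPKM), and fibroblast markers lower (17.95 and 11.8 against 19.9 and 73.4 RPKM). The part of these cells in the differences was not tested.

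No member was called between the primary tumours, against 0.0312% of all genes. An unadjusted p of 0.05 was passed by 5 members upward (Gsta1, Gsta4, Gstm1, Gsto1 and Mgst1) and 1 downward (Gstm2), against 3.76% and 9.43% of all genes. Non-overlap was seen for 6 upward and 1 downward, against 15.7% and 31.5%. The median difference was 2.70 for the 10 genes and -0.31 for all genes. With PDAC primary tumour 5 alone (n = 1 against 2, the single library being assumed to vary like the other groups), 4 members were called by limma (6.54% of all genes): Gsta3 at 7.92 (adjusted p = 0.0126), Gsta4 at 6.94 (0.0237), Gsta1 at 5.10 (0.0261) and Gsto1 at 4.92 (0.0123). With PDAC primary tumour 1 alone none was, and these 4 were at -0.03, 2.52, 1.13 and 0.47. Tumour of origin and fluorescent label differ together between the models and cannot be told apart.

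**Figure D4:**
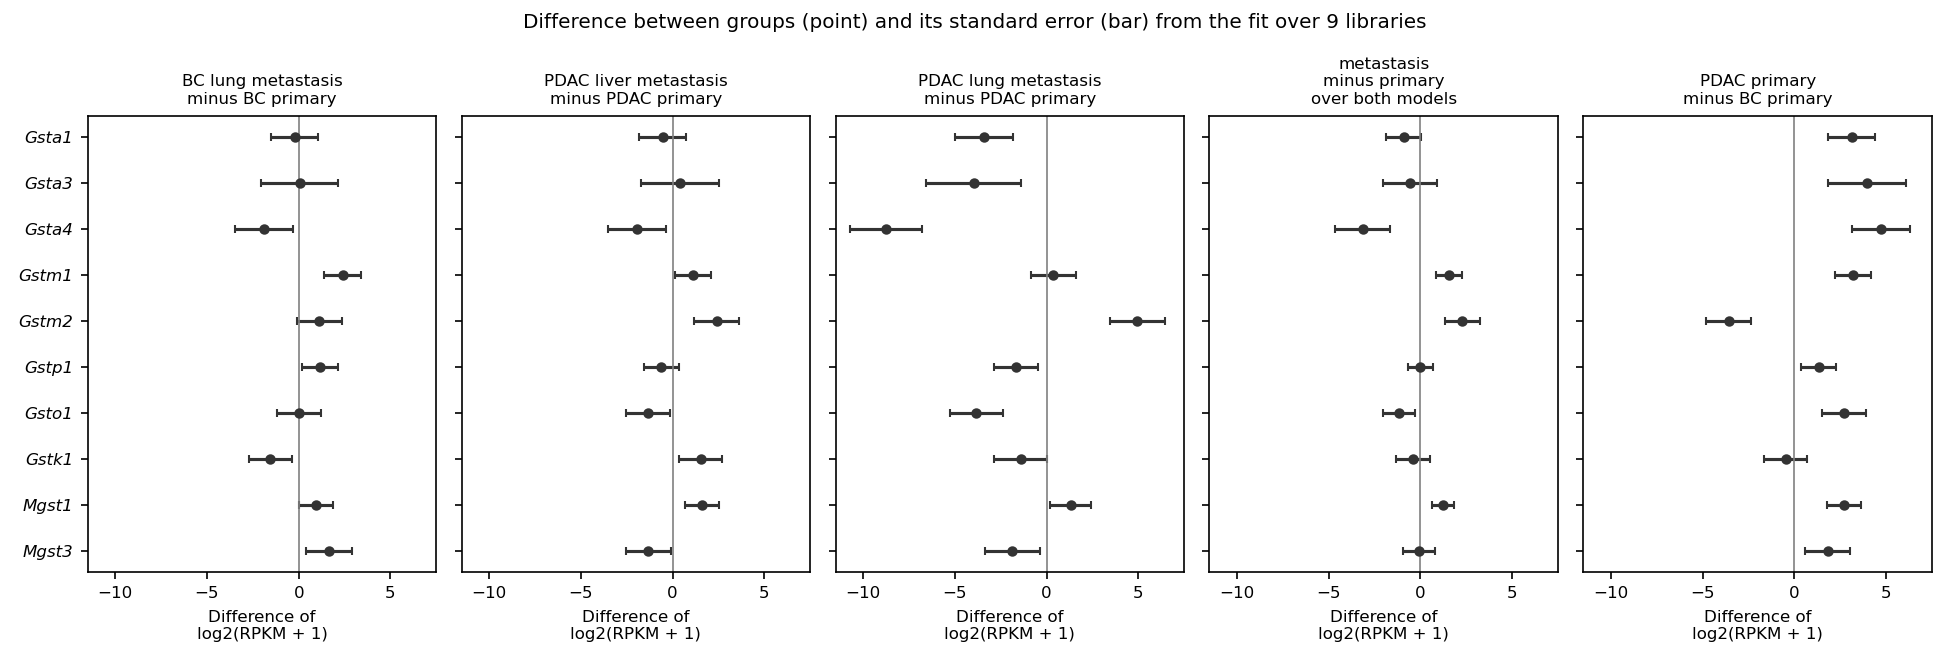
Difference of log2(RPKM + 1) for each of the 10 genes (points) with its standard error (bars) from the fit over 9 libraries, in 5 panels of metastasis minus primary or PDAC primary minus BC primary. Gsta4 in the PDAC lung metastasis lies farthest from 0, at -8.75, and no member passed the adjusted threshold in any panel.

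Among the members, Gsta1 and Gsto1 had the most similar profiles over the 9 libraries, with a root mean square difference of 0.64 between their centred log2(RPKM + 1) values, followed by Gstp1 and Mgst3 (0.77). Among all tested genes the profiles nearest to Gsta1 were those of Sult1c2, a sulfotransferase (0.22), 2610035D17Rik (0.34) and Clic3 (0.36), and those nearest to Gsto1 were Gpd1, a glycerol phosphate dehydrogenase (0.44), Pir (0.47) and Car8 (0.50). Gsta3 was nearest to Fabp1 (0.35) and then to Cym (0.80) and Ripply3 (0.82), and Gsta4 to F3, the tissue factor gene (1.14), Sdcbp2 (1.17) and Muc1, an epithelial mucin (1.32). Sult1c2 had 11.3 and 2.22 RPKM in PDAC liver metastases 1 and 5, against 2.62 and 38.2 RPKM in PDAC primary tumours 1 and 5, and was listed at 0 in the other 5 libraries. The median over all genes was 2.22 for Gsta1, 2.09 for Gsto1, 3.20 for Gsta3 and 3.44 for Gsta4. The nearest genes of all 4 members were highest in PDAC primary tumour 5.

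Gstp1 was nearest to Gstp2 (0.27), which shares sequence with it, to Prdx1, a peroxiredoxin and textbook NRF2 target (0.28), and to the predicted gene Gm7204 (0.30), against a median of 1.67 over all genes. Prdx1 had 1608 and 142.7 RPKM in PDAC liver metastases 1 and 5, against 644 and 1192 RPKM in PDAC primary tumours 1 and 5. The profile of Mgst1 was nearest to Sqrdl, a mitochondrial sulfide oxidase (0.55), Glul, glutamine synthetase (0.67), and Arrb2, a beta arrestin (0.67), and all 3 were highest in PDAC liver metastasis 5. Gstm1 was nearest to Fxyd1 (0.71), 2900053A13Rik (0.76) and Cd302 (0.77), and Gstm2 to Pmp22 (0.64), Irak1bp1 (0.65) and Sgcb (0.77). Gstk1 was nearest to RP23-349B16.3 (0.44), Trim68 (0.47) and Entpd6 (0.48), and Mgst3 to Gm11641 (0.43), Avpi1 (0.57) and Rbpms (0.58). Such likeness over 9 libraries that differ in depth and cell make-up is a description.

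Of the other 20 glutathione transferases and related enzymes in the list, 15 were tested and none was called in any of the 6 comparisons. In PDAC liver metastases Gstp3, Gstm4 and Alox5ap, a leukotriene synthesis protein of the microsomal family, had the smallest p, with differences of 1.96 ± 0.71, 2.48 ± 0.98 and 3.25 ± 1.41 (SE, n = 2 against 2; limma adjusted p = 0.598, 0.682 and 0.765). Alox5ap was at 356 and 2168 RPKM in PDAC liver metastases 1 and 5, against 138 and 60.5 RPKM in PDAC primary tumours 1 and 5. In BC lung metastases Ltc4s, leukotriene C4 synthase, had 26.8 and 31.6 RPKM, against 1.99 and 6.93 RPKM in BC primary tumours, a difference of 2.63 ± 1.11 (adjusted p = 0.974). Ptges, a prostaglandin E synthase, had 0.0378 and 1.01 RPKM in PDAC primary tumours 1 and 5, against 18.4 and 21.6 RPKM in BC primary tumours 1 and 5, a difference of -3.86 ± 1.09 (adjusted p = 0.221). Gstz1, a zeta enzyme of tyrosine breakdown, was at 0.331 RPKM in PDAC lung metastasis 1, against 28.7 and 103 RPKM in PDAC primary tumours 1 and 5, a difference of -5.39 ± 1.77 (adjusted p = 0.211).

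The 13 genes of glutathione synthesis and recycling were all tested, and none was called in any comparison. Without overlap, 5 were higher and 0 lower in PDAC liver metastases than in the primary tumours, against 15.4% and 10.2% of all genes, and 7 were higher and 1 lower in the PDAC lung metastasis, against 23.9% and 34.4%. The 3 with the smallest p in both comparisons are given next, so their separation follows from how they were picked. Gclm, the modifier subunit of the rate-limiting ligase, had 78.3 and 101 RPKM in PDAC liver metastases 1 and 5 and 79.6 RPKM in PDAC lung metastasis 1, against 22.3 and 0.0230 RPKM in PDAC primary tumours 1 and 5. Slc7a11, the cystine importer, had 6.57, 58.7 and 41.9 RPKM in the same metastases, against 1.92 and 1.24 RPKM. G6pdx, which supplies NADPH, had 7.89, 107.7 and 43.8 RPKM, against 4.26 and 0.0207 RPKM. The differences in the liver were 4.20 ± 1.44, 3.06 ± 1.17 and 3.75 ± 1.29 (limma adjusted p = 0.555, 0.636 and 0.555).

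Of the 20 genes of the NRF2 system and its textbook targets, 19 were tested and none was called. Nfe2l2, the NRF2 gene, had 27.8 and 74.8 RPKM in PDAC liver metastases 1 and 5 and 28.7 RPKM in PDAC lung metastasis 1, against 25.0 and 46.9 RPKM in PDAC primary tumours 1 and 5. Keap1, its repressor, was listed at 0 in PDAC lung metastasis 1 and had 0.0286 RPKM in PDAC primary tumour 5. Akr1b8, an aldo-keto reductase, was listed at 0 in PDAC lung metastasis 1, against 28.2 and 277.7 RPKM in PDAC primary tumours 1 and 5, with a difference of -6.50 ± 1.56 (limma adjusted p = 0.0944). Srxn1, sulfiredoxin, had 26.7 and 5.13 RPKM in PDAC liver metastases 1 and 5 and was listed at 0 in both PDAC primary tumours, with a difference of 3.70 ± 1.52 (adjusted p = 0.725). Nqo1, a quinone reductase, had 27.1 and 11.2 RPKM in PDAC liver metastases 1 and 5, against 5.95 and 0 RPKM in PDAC primary tumours 1 and 5. Of the 19 genes tested, 3 were higher and 1 was lower in PDAC liver metastases without overlap, against 15.4% and 10.2% of all genes. In the PDAC lung metastasis 7 were higher and 5 lower without overlap, against 23.9% and 34.4% of all genes. Hmox1, haem oxygenase, was listed at 0 in PDAC lung metastasis 1, against 11.98 and 46.9 RPKM in PDAC primary tumours 1 and 5. PDAC primary tumour 5 was the highest of the 9 libraries for Akr1b8 and Hmox1. The list summed to 2632 RPKM in PDAC primary tumour 5, under the 3132 RPKM of PDAC liver metastasis 1 and the 2956 RPKM of BC lung metastasis 6. As a share of all RPKM it was 0.554% there, against 0.145 to 0.541% in the other 8 libraries. Prdx1 (1192 RPKM) and Txn1 (687 RPKM) made up most of the sum in PDAC primary tumour 5, where 5 of the 20 genes were listed at 0.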

How the data were processed

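RNA from 9 sorted tumour cell libraries had been sequenced after SMART-seq v4 and Nextera XT preparation, which does not mark strand, per the labels' protocols. Per the submitters' processing notes the genome build was mm9. Aligner, counter, annotation and read length are not given in the sources used here. A single table, deposited by the authors, is named CPM, but its low values (under 20 reads) multiplied by GENCODE M21 exonic length were whole multiples, within 0.02, of 1 step per library for 62.6 to 74.3% of them, so the deposited values were read as RPKM. Scaling totals were 12800000 to 131100000 reads, and 0 value columns were left out. The estimated reads on genes exceeded the scaling total in every library but BC primary tumour 5, with 21300000 against 12800000 in PDAC lung metastasis 1. RPKM with these lengths does not account for that, so the unit is inferred and the read estimates are approximate. The cause was not tested. Lengths were found for 93% of genes.

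Libraries were grouped by model and site from their labels. limma 3.58.1 (R 4.3.3, statmod 1.5.0; mean-variance trend, robust) was fitted to log2(RPKM + 1) of 12832 genes that reached 1 RPKM in 2 or more libraries, with 5 group means and 4 residual degrees of freedom. The fit over both models used the model as a covariate. A log2 difference with this pseudocount understates the change of low genes. The two-sided p-values were adjusted over all genes tested (Benjamini-Hochberg, called under 0.05). The procedure was also run on simulated data, but no outcome is given here. That run therefore does not show how the procedure performs at the spread of these libraries. No 2 libraries held identical values. PDAC libraries of 1 number share age and genotype and are described as matched, so numbers were taken to pair them by mouse. Deviations from the group mean correlated at -0.165 between PDAC primary 1 and liver metastasis 1.

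The 10 genes, the gene lists, the marker lists and the tests were chosen with earlier results of these data known. Named genes were all members, the 3 tested genes with the nearest profile to each member, and, for each pathway list, genes among the 3 smallest p of a comparison. Nfe2l2, Keap1 and Tfrc were named after their values were seen. So were, as markers, Apoa1, Fabp1, Trf, Igkc, Dcn, Napsa, Sftpd, Cldn18, Ltf and S100a8. Promoter windows are from RefSeq (GRCm38.p6), and no position was converted from mm9. Alternatives were another pseudocount (0.1), no filter, 2 other scalings, only the groups compared, fewer libraries and the replicate block.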

Additional observations from a re-analysis of the deposited data

How the results depend on the processing

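In the main fit no member was called, and the alternatives gave 740 member values, of which 679 stayed on their side of the threshold and kept their direction, 51 turned direction and 10 passed the threshold, all of these without PDAC primary 1 and 5 of them in the lung comparison of 1 library against 1. Groups held 1 or 2 libraries, and leaving out the 3 libraries with the fewest genes turned the directions given below. The cause of each change below was not tested.
Calls over all genes moved for PDAC liver metastasis against primary (1 in the main fit) to 0 with pseudocount 0.1, no filter, rescaling without haemoglobin, quantile scaling, only the groups compared or without the 3 libraries with the fewest genes. For PDAC lung metastasis (75) they were 270 with pseudocount 0.1, 251 with no filter, 161 with quantile scaling and 0 with only the groups compared. Over both models (1) they were 0 with pseudocount 0.1, no filter, rescaling or without the 3 libraries, and 6 with quantile scaling. For PDAC against BC primary (4) they were 0 with no filter or only the groups compared, 13 with quantile scaling and 72 without the 3 libraries. With the replicate block, calls were 0 in PDAC liver and 0 in PDAC lung metastasis, no member was called, and no paired analysis was possible for the BC groups because they share no number.
Leaving out 1 library each time, calls over all genes were 0 to 1032 in PDAC liver (1032 without PDAC primary 1), 0 to 1547 in PDAC lung (0 without BC lung metastasis 4, BC primary 1 or BC primary 5, 1 without BC lung metastasis 6, 170 without PDAC primary 5, 1547 without PDAC primary 1), 0 to 10 over both models, 1 to 803 for PDAC against BC primary (205 without PDAC primary 5, 803 without PDAC primary 1) and 0 to 30 for the difference of effects. Members called were 0 to 1, 0 to 5 and 0 to 4 in PDAC liver, PDAC lung and PDAC against BC primary.
Directions that turned: in BC lung metastasis Gsto1 was -0.47 with rescaling, -0.55 with quantile scaling and -0.47 without the 3 libraries, and Gsta1 0.072 with quantile scaling. Gsta3 in PDAC liver was -0.0059 with rescaling, and Gstk1 in PDAC against BC primary 0.11 with quantile scaling. Without the 3 libraries, PDAC liver gave Gsta1 1.44, Gsta4 0.25, Gsto1 0.87 and Mgst3 0.60. Both models then gave Gsta1 0.64, Gsta3 2.24, Gsta4 0.030, Gstp1 0.18, Gsto1 0.20 and Mgst3 0.72, and PDAC against BC primary Gsta3 -0.028, Gstk1 0.92 and Mgst3 -0.10.
Leaving out 1 library, ranges that crossed 0 in BC lung were Gsta3 -0.028 to 0.13, Gsto1 -0.47 to 0.50 and Mgst1 -0.26 to 2.09. In PDAC liver they were Gsta1 -2.53 to 1.44, Gsta3 -3.59 to 4.36, Gsta4 -4.17 to 0.25, Gstp1 -2.11 to 0.88, Gsto1 -3.58 to 0.87 and Mgst3 -3.25 to 0.60, and in PDAC lung Gstm1 -0.19 to 0.91 and Mgst3 -3.80 to 0.054. Over both models they were Gsta1 -1.62 to 0.081, Gsta3 -2.13 to 1.27, Gstp1 -0.46 to 0.46, Gsto1 -1.88 to 0.028, Gstk1 -1.25 to 0.020 and Mgst3 -0.66 to 1.12, and for PDAC against BC primary Gsta3 -0.028 to 7.92, Gstk1 -1.88 to 0.92 and Mgst3 -0.10 to 3.75. Rescaling and quantile scaling put the median of all genes at -0.65 and 0.07 in BC lung, against -0.29 in the main fit. Without the 3 libraries no PDAC lung value exists.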

Other observations

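Of the 20 listed genes that export glutathione conjugates or turn them into mercapturates, 12 were tested, and limma called none in any of the 6 comparisons. In PDAC lung metastasis 1 against the PDAC primary tumours, 2 had an unadjusted p under 0.05, both higher, beside 13.8% of all genes in either direction. Of these, Ggt5, a gamma-glutamyl transferase, had 0.538 and 42.8 RPKM in PDAC liver metastases 1 and 5 and 22.1 RPKM in PDAC lung metastasis 1, against 1.10 and 0 RPKM in PDAC primary tumours 1 and 5 (lung difference 4.00 ± 1.68, SE, limma adjusted p = 0.326). Abcc5, a conjugate pump, had 4.83 RPKM in PDAC lung metastasis 1, against 0.620 and 0.0241 RPKM in PDAC primary tumours 1 and 5 (difference 2.18 ± 0.86, adjusted p = 0.292). Abcc3, another pump, reached 32.9 RPKM in PDAC primary tumour 5 and 0.749 to 5.66 RPKM in the other 8 libraries. Acy1, an aminoacylase, had 19.6 and 0 RPKM in PDAC primary tumours 1 and 5, against 51.7 and 37.8 RPKM in BC primary tumours 1 and 5 (difference -3.32 ± 1.36, adjusted p = 0.340). Abcc2, the canalicular pump of hepatocytes, was at or under 0.0834 RPKM in all 9 libraries. Abcc2 and Abcc3 were singled out after their values were seen.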
